A study of Arabidopsis thaliana with 10 samples.

Results

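Expression of 9 tau glutathione transferase genes was followed across 10 RNA-seq libraries of Arabidopsis thaliana, in 5 groups of 2. The genes were GSTU5 (AT2G29450), GSTU7 (AT2G29420), GSTU8 (AT3G09270), GSTU17 (AT1G10370), GSTU18 (AT1G10360), GSTU19 (AT1G78380), GSTU20 (AT1G78370), GSTU24 (AT1G17170) and GSTU25 (AT1G17180), taken by these identifiers from a list. They are 9 of the 28 genes of the tau class in the genome and of the 33602 genes counted. All 9 passed the filter on low counts, as did 20628 genes in all. They were selected on measured values of these same libraries, their levels in the 5 groups and the fold changes between them, so those values are given below as a description, without p-values, and tests are given only for genes outside the list. The other gene lists below were also drawn up with earlier results of these data known, so their counts describe these libraries and are not independent evidence of a direction.

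Libraries were made from whole seedlings of the Col6-3 background after 5 days under continuous light (100 µmol per square metre and second, 22 °C) on LS medium. One group was untreated wild type, and the other 4 grew on 5 µM norflurazon: wild type, the mutant gun1-9 and the overexpressors MORF2OX and MORF2OX(w). Every mutant or transgenic library was therefore also a treated one. Norflurazon blocks phytoene desaturase in carotenoid synthesis, and chloroplasts formed on it in light are bleached. The mutant gun1-9 carries a lesion in GUN1, a plastid protein through which damaged plastids lower the expression of nuclear photosynthesis genes. MORF2OX and MORF2OX(w) overexpress MORF2, a plastid RNA editing factor, and the labels set them apart by the strength of their phenotype. Each library pooled more than 100 plants. The labels state neither the promoter of the MORF2 transgenes nor the number of independent lines, and untreated libraries of the 3 lines were not analysed here.

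Glutathione transferases join the thiol of glutathione to reactive electrophiles such as herbicides, lipid peroxidation products and other toxic carbonyls. The tau class is specific to plants, and its members are mostly cytosolic dimers encoded in tandem clusters. Conjugates are carried into the vacuole by ABCC transporters and broken down there. Many tau genes are induced by xenobiotics, auxin, salicylic acid or oxidative stress, in part through bZIP factors of the TGA group that bind the as-1 promoter element.

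The 9 genes lie at 5 places in the genome (coordinates from RefSeq TAIR10.1). GSTU5 (chr2:12624403-12625790) and GSTU7 (chr2:12617936-12618899) sit on the minus strand in the cluster that also holds GSTU1 to GSTU4 and GSTU6. GSTU17 (chr1:3396883-3398358) and GSTU18 (chr1:3395551-3396953), both on the minus strand, follow each other so closely that the end of GSTU17 and the start of GSTU18 share 71 bases. GSTU24 (chr1:5869543-5870883) and GSTU25 (chr1:5872024-5873124) are neighbours on the plus strand. GSTU19 (chr1:29486387-29488007) and GSTU20 (chr1:29484120-29485389) are neighbours on the minus strand, and GSTU8 (chr3:2848183-2849686, minus strand) stands apart from the clusters. Each of the 9 has 2 exons.

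Between the coding sequences of the 9 genes, nucleotide identity ran from 54% to 81.6%. GSTU17 and GSTU18 were the most alike, followed by GSTU24 and GSTU25 (79.4%) and by GSTU19 with GSTU24 (76.8%) and with its neighbour GSTU20 (76.2%). Outside the list, GSTU5 was closest to GSTU6 (83.4%) and GSTU19 to GSTU21 (78.3%). Apart from the shared end of GSTU17 and GSTU18, the longest run of identical bases between a member and any other tau gene was 32, for GSTU24 and GSTU22. No label states the strand or overlap setting used in counting, so reads from the shared 71 bases may be missing from GSTU17 and GSTU18. GSTU7 overlaps the opposite strand gene AT2G29410 by 52 bases and AT2G08340, also on the opposite strand and not counted as a gene of its own, by 636 bases. The counts of GSTU7 could hold reads of both.

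The 250 bases before the annotated starts of the members were searched on both strands for TGACG, the core bound by TGA factors in as-1. It was found in 4 of the 9 (GSTU5, GSTU7, GSTU24 and GSTU25), against 18.6% of 27443 windows genome-wide and 7 of the 19 other tau genes. TTGAC, the core of the W box bound by WRKY factors, was found in 6 of 9 and in 44.9% of all windows. CACGTG, the G box, was found in GSTU17 and GSTU18 only among the 28 tau genes and in 6.49% of windows, and the mitochondrial dysfunction motif bound by ANAC013 and ANAC017 in none of the 28 and in 0.74% of windows. The window of GSTU18 lies inside the neighbouring GSTU17. TGACG and TTGAC can share bases, as they do in GSTU5 where they run together 142 bases before the start. These matches describe letters in a window and were not tested for binding.

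The windows of 4 genes are shown 5′ to 3′ on the gene's strand, with matches to any of the motifs in capitals. GSTU19 and GSTU20 are shown because these neighbours behaved differently on norflurazon. GSTU25 is shown as the member with a TGACG match that was higher on norflurazon, and GSTU7 because it holds 3 TGACG matches, of which a pair overlaps in TGACGTCA 49 to 52 bases before the start, while its level varied least. The windows are chr1:29488008-29488257 (minus strand), chr1:29485390-29485639 (minus), chr1:5871774-5872023 (plus) and chr2:12618900-12619149 (minus), from RefSeq TAIR10.1.
GSTU19: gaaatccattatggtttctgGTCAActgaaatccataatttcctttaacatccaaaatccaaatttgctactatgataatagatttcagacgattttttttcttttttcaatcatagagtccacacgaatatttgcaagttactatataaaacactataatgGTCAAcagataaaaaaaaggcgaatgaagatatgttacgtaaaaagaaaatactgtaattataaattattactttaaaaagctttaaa
GSTU20: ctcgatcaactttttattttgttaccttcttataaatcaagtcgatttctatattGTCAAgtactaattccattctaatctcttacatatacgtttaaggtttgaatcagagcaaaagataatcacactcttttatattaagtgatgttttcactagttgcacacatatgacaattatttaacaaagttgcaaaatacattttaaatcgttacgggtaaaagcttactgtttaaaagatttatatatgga
GSTU25: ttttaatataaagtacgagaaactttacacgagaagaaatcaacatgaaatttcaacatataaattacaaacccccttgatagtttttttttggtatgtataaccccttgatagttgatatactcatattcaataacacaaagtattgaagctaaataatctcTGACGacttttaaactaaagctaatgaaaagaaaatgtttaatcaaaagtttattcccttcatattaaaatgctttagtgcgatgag
GSTU7: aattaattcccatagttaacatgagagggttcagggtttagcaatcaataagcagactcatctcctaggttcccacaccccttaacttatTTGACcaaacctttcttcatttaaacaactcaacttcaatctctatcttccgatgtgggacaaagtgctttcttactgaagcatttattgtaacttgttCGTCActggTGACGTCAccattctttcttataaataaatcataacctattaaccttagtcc
GSTU19 holds a pair of W box cores, 230 and 88 bases before the start, and GSTU20 holds 1, at 195 bases. Neither holds TGACG. In GSTU25 the TGACG match lies 87 bases before the start. An uncharacterised non-coding transcript, AT2G00850, overlaps the distal end of the GSTU7 window.

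Total counts ran from 19018594 to 25220815 per library, and levels are given as CPM, counts scaled to the library size with TMM factors. The 2 libraries of wild type on norflurazon were less alike (Spearman 0.984 over genes, chi-square per degree of freedom 36.05) than those of the other groups (0.994 to 0.997, and 5.22 to 10.1). MORF2 was at 90.8 to 123 CPM in the 6 libraries without the transgene, at 7969 and 7248 in MORF2OX and at 4430 and 5012 in MORF2OX(w). GUN1 was at 154 and 147 CPM in gun1-9 and at 191 and 284 in wild type on norflurazon. That difference bears on the label only in part, because the lesion of gun1-9 is not given. Summed over 6 markers of green tissue, the level was 47120 and 37220 CPM in untreated wild type, 2421 and 2217 in treated wild type, 21670 and 23040 in gun1-9, 13840 and 12400 in MORF2OX against 6081 and 6386 in MORF2OX(w). Summed over 11 root markers, of which none was at 0 in any library, it was 113 and 127 CPM untreated and 231 to 338 in the 8 treated libraries. Between treated and untreated wild type 9 root markers were higher and 1 lower (edgeR, adjusted p under 0.05), with a median log2 fold change of 3.03. Of all genes tested, 30.5% were higher and 34.5% lower. In whole seedlings fewer cells of a type and less RNA per cell cannot be told apart, and the part of tissue makeup in the values below was not tested.

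Per kilobase of exon, which allows genes to be compared, GSTU19 was the most abundant of the 9 in untreated wild type with 414 ± 27.6 CPM per kb (mean ± SD, n = 2, as for all values with ± below). GSTU5 followed with 138 ± 8.60, then GSTU20 with 96.4 ± 7.54, GSTU18 with 86.7 ± 3.52 and GSTU17 with 74.4 ± 9.13. GSTU7 was at 36.1 ± 1.45, GSTU24 at 10.2 ± 2.45, GSTU8 at 5.85 ± 1.35 and GSTU25 at 1.32 ± 0.946. From GSTU20 to GSTU18 and from GSTU18 to GSTU17 the gaps were little larger than the larger SD of each pair. On norflurazon GSTU19 stayed the most abundant in wild type at 163 ± 9.16 CPM per kb, while GSTU20 and GSTU18 lay at 4.61 ± 0.857 and 7.03 ± 0.531, next to GSTU24 (4.84 ± 1.43) and GSTU25 (4.71 ± 0.616). Summed over the 9 genes, the level was 1022 and 933 CPM untreated and 391 and 337 in treated wild type. It was 709 and 725 CPM in gun1-9, 409.5 and 367.3 in MORF2OX against 346 and 352 in MORF2OX(w).

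**Figure D1:**
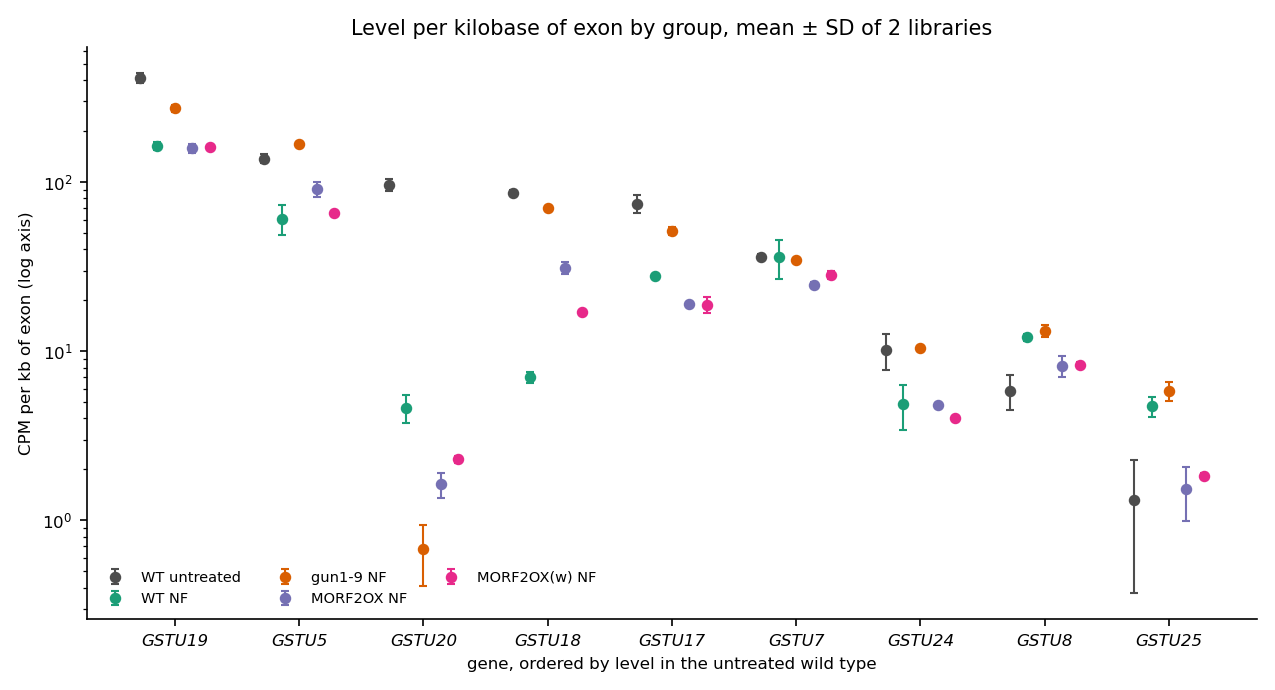
Level of each of the 9 genes in CPM per kilobase of exon (vertical log axis), by group in colour, as the mean of 2 libraries with bars of ± 1 SD. GSTU19 is the highest in untreated wild type at 414 CPM per kb, and the level of GSTU20 spans more than any other, from 96.4 untreated to 0.674 in gun1-9.

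GSTU18 was the member with the largest fold change from treated wild type in gun1-9 and in MORF2OX. Its libraries held 90.8 and 85.8 CPM in untreated wild type, 7.54 and 6.77 in treated wild type, 72.6 and 69.6 in gun1-9, 33.4 and 29.7 in MORF2OX against 17.6 and 16.9 in MORF2OX(w). No 2 groups overlapped, and the order was untreated, gun1-9, MORF2OX, MORF2OX(w) and treated wild type. Treated wild type thus held 8.10% of the untreated level, 12.35-fold less (log2 fold change -3.63, SE 0.12). The lines held 80.5%, 35.7% and 19.5%, which are 9.94-fold, 4.41-fold and 2.41-fold above treated wild type (log2 fold changes 3.31, 2.14 and 1.27, each SE 0.12). The summed level of the 6 green tissue markers had the same order of groups.

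GSTU17, also named ERD9 (early responsive to dehydration) and known as a negative component of drought and salt stress signalling, lies just upstream of GSTU18 but followed another course. Its level was 93.8 and 78.8 CPM untreated, 32.5 and 32.4 in treated wild type, 57.5 and 62.1 in gun1-9, 22.2 and 21.9 in MORF2OX against 20.2 and 23.5 in MORF2OX(w). Gun1-9 lay between treated and untreated wild type, while both MORF2 lines lay below treated wild type and overlapped each other. Relative to treated wild type the log2 fold changes were 0.88 (SE 0.12) in gun1-9, -0.56 (SE 0.12) in MORF2OX and -0.57 (SE 0.12) in MORF2OX(w). MORF2OX was thus below treated wild type for GSTU17 and above it for GSTU18.

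GSTU19, which is induced by herbicide safeners and is linked to drought and oxidative stress tolerance, held 486 and 442 CPM untreated. The values were 190 and 175.5 CPM in treated wild type, 295 and 316 in gun1-9, 185.5 and 169.2 in MORF2OX against 177 and 185 in MORF2OX(w). Treated wild type and both MORF2 lines overlapped at 38.2% to 39.4% of the untreated level, and gun1-9 stood above them at 65.9%. The log2 fold change was -1.34 (SE 0.12) on norflurazon and 0.74 (SE 0.11) in gun1-9 over treated wild type, against -0.04 and -0.01 (each SE 0.11) in MORF2OX and MORF2OX(w).

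GSTU20, a partner of the jasmonate-conjugating enzyme FIN219 (JAR1) and also named FIP1, showed the opposite order of lines. It held 116.7 and 104.5 CPM untreated, 5.986 and 4.597 in treated wild type, 0.988 and 0.559 in gun1-9, 2.102 and 1.643 in MORF2OX against 2.54 and 2.72 in MORF2OX(w). All 3 lines lay below treated wild type, with gun1-9 the lowest, and no 2 groups overlapped. Treated wild type was 20.9-fold below untreated (log2 fold change -4.39, SE 0.17), and gun1-9 was a further 6.84-fold lower (-2.78, SE 0.25). The log2 fold changes from treated wild type were -1.49 (SE 0.21) in MORF2OX and -1.004 (SE 0.20) in MORF2OX(w). The gun1-9 libraries rest on 20 and 13 counts.

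**Figure D2:**
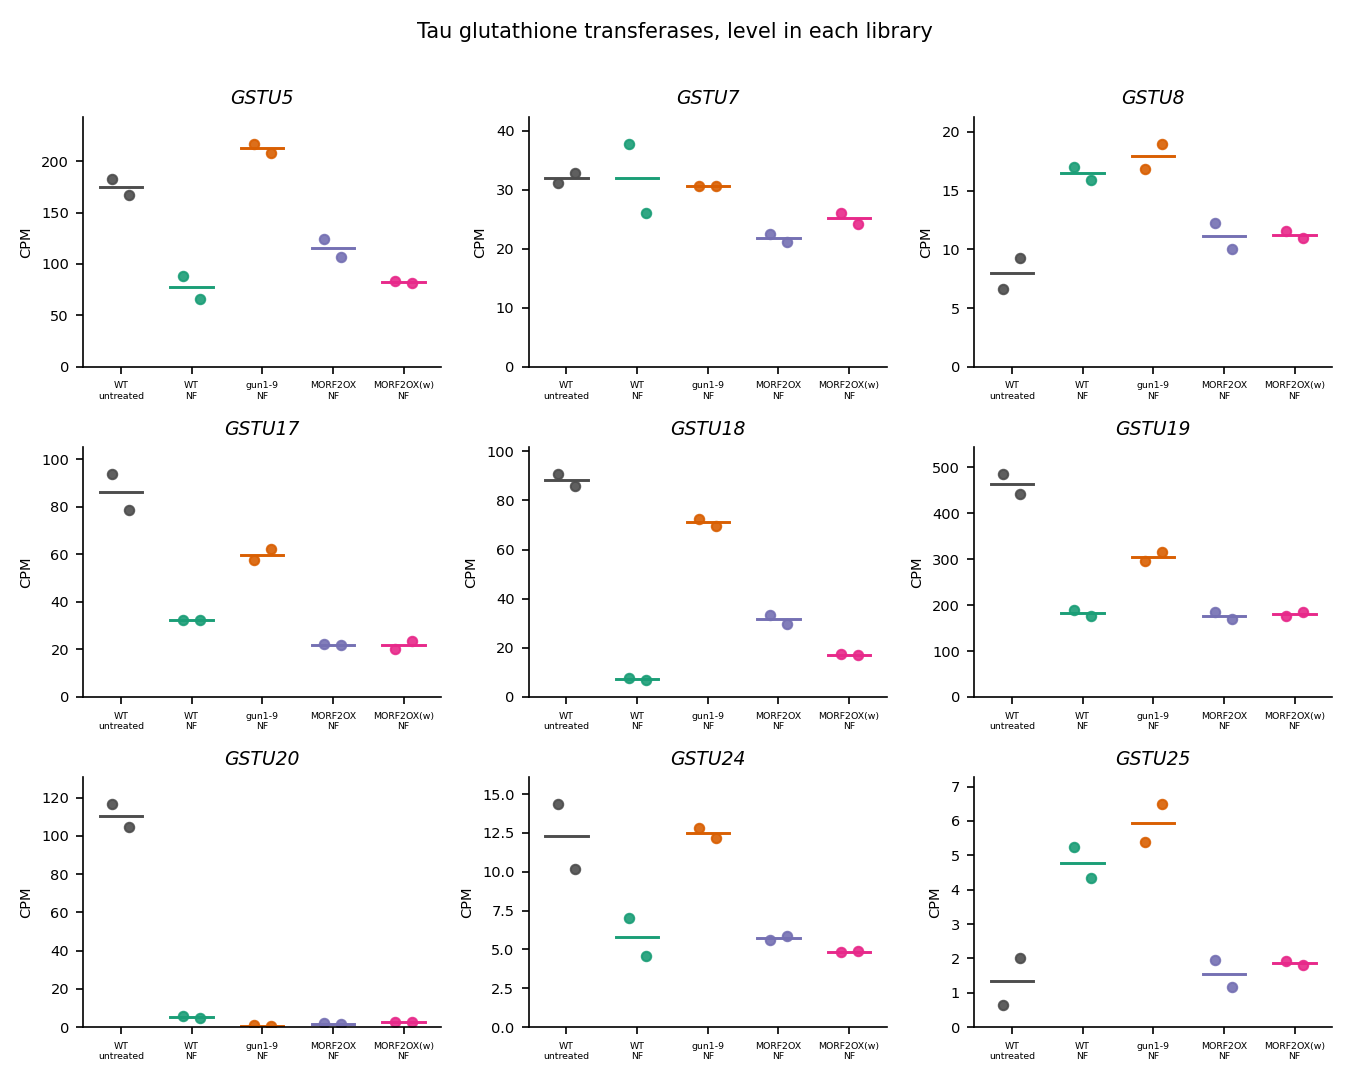
Level of each of the 9 genes in CPM (vertical axis, from 0, scaled per gene) in the 5 groups, with 1 point per library and a line at the mean of 2. GSTU18 is lowest in treated wild type (7.54 and 6.77 CPM) and intermediate in the 3 lines, while GSTU20 is lower in all 3 lines than in treated wild type (5.986 and 4.597 CPM).

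GSTU5, an auxin-inducible gene that also responds to pathogens and herbicides, held 182.5 and 167 CPM untreated, 87.95 and 66.3 in treated wild type, 217 and 208 in gun1-9, 124 and 107 in MORF2OX against 83.9 and 81.8 in MORF2OX(w). Gun1-9 lay above even the untreated libraries, at 122% of their mean. MORF2OX lay between, and MORF2OX(w) overlapped treated wild type. The log2 fold change was -1.18 (SE 0.14) on norflurazon. Over treated wild type it was 1.46 (SE 0.14) in gun1-9, 0.58 (SE 0.14) in MORF2OX and 0.10 (SE 0.14) in MORF2OX(w).

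GSTU7, which is induced by salicylic acid and lies in the same cluster as GSTU5, varied least. Its level was 31.1 and 32.9 CPM untreated, 37.8 and 26.2 in treated wild type, 30.6 in both gun1-9 libraries, 22.5 and 21.1 in MORF2OX against 26.1 and 24.2 in MORF2OX(w). The libraries of treated wild type lay on both sides of the untreated and the gun1-9 libraries, and the MORF2 lines lay below all of these, MORF2OX(w) by less than the gap between the treated wild type libraries. Between the highest and lowest group mean the ratio was 1.47.

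GSTU24 and GSTU25, neighbours whose enzymes conjugate the explosive TNT, differed in their response. GSTU24 held 14.4 and 10.2 CPM untreated, 7.032 and 4.597 in treated wild type, 12.8 and 12.2 in gun1-9, 5.59 and 5.89 in MORF2OX against 4.85 and 4.88 in MORF2OX(w). Gun1-9 overlapped the untreated libraries, and both MORF2 lines overlapped treated wild type. The log2 fold change was -1.08 (SE 0.21) on norflurazon and 1.11 (SE 0.21) in gun1-9 over treated wild type.

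GSTU25 instead was higher on norflurazon. It held 0.659 and 2.02 CPM untreated, 5.23 and 4.35 in treated wild type, 5.39 and 6.49 in gun1-9, 1.94 and 1.16 in MORF2OX against 1.92 and 1.80 in MORF2OX(w). Treated wild type and gun1-9 stood above the other 3 groups, which overlapped in part. On norflurazon the log2 fold change was 1.79 (SE 0.36), and 2.94 without untreated replicate 2. The untreated libraries held 10 and 36 counts. In MORF2OX and MORF2OX(w) the log2 fold changes from treated wild type were -1.62 (SE 0.33) and -1.36 (SE 0.33).

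GSTU8 had the same ranking of group means as GSTU25, from gun1-9 and treated wild type through MORF2OX(w) and MORF2OX to untreated wild type. Its level was 6.65 and 9.25 CPM untreated, 17.04 and 15.89 in treated wild type, 16.85 and 19 in gun1-9, 12.22 and 10.02 in MORF2OX against 11.54 and 10.96 in MORF2OX(w). Treated wild type overlapped gun1-9, and the MORF2 lines overlapped each other between them and the untreated libraries. The log2 fold change was 1.04 (SE 0.17) on norflurazon, and relative to treated wild type -0.57 (SE 0.16) in MORF2OX and -0.55 (SE 0.16) in MORF2OX(w). Across the 10 libraries, which share the 5 groups, log2 CPM of GSTU8 and GSTU25 had a Pearson r of 0.964, the highest of any pair of members, and that of GSTU8 and GSTU20 was -0.721, the lowest.

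Set side by side, norflurazon left 6 of the 9 genes lower in treated than in untreated wild type without overlap of libraries (GSTU5, GSTU17, GSTU18, GSTU19, GSTU20 and GSTU24), 2 higher (GSTU8 and GSTU25) and 1 overlapping (GSTU7). Among all genes tested 78.9% did not overlap in this comparison, 37.8% being higher and 41.1% lower. The median log2 fold change was -1.18 for the 9 and -0.03 for all genes. Scaling by total counts instead of TMM moved the median of all genes to 0.70 and the values of members by up to 1.67-fold. GSTU7 was then at 0.73 and GSTU24 at -0.34. The 6 lower genes kept a negative log2 fold change, but without TMM factors the libraries of GSTU24 overlapped.

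Against treated wild type, gun1-9 was higher without overlap for 6 of the 9 (GSTU5, GSTU17, GSTU18, GSTU19, GSTU24 and GSTU25) and lower for GSTU20, where 68.8% of all genes did not overlap (33.5% higher and 35.3% lower). MORF2OX was higher for GSTU5 and GSTU18 and lower for 5 (GSTU7, GSTU8, GSTU17, GSTU20 and GSTU25), against 64.4% of all genes (34.4% higher and 30.1% lower). MORF2OX(w) was higher for GSTU18 and lower for those 5 too, against 55.5% (29.9% higher and 25.6% lower). Median log2 fold changes of the 9 were 0.74, -0.55 and -0.34, and those of all genes -0.04, 0.02 and 0.01. These 3 comparisons share the treated wild type libraries. Compared with gun1-9 directly, both MORF2 lines were lower for 8 of the 9 and higher for GSTU20, where 74.5% of all genes did not overlap for MORF2OX (37.5% higher and 37.0% lower) and 75.1% for MORF2OX(w) (38.0% higher and 37.1% lower). Between the MORF2 lines, MORF2OX was the higher for GSTU5, GSTU18 and GSTU24 and the lower for GSTU7 and GSTU20, where 51.9% of all genes did not overlap (28.7% higher and 23.1% lower). Nothing is read from these counts, since the genes were listed with the values known.

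The rest of the tau class was then tested. Of the 19 other tau genes, 14 passed the filter, and GSTU3, GSTU11, GSTU12, GSTU15 and GSTU21 were left out with 0 to 5 counts in every library. On norflurazon 7 of the 14 rose and 3 fell in wild type (edgeR, adjusted p under 0.05), where 65.0% of all genes passed, 30.5% higher and 34.5% lower. GSTU22, a neighbour of GSTU19 and GSTU20, was at 0.329 and 1.23 CPM untreated and at 7.41 and 4.42 on norflurazon (log2 fold change 2.85 with SE 0.39, edgeR adjusted p = 4.3e-05). GSTU9 rose from 0.988 and 2.19 CPM to 7.83 and 4.92 (log2 fold change 1.965 with SE 0.32, edgeR adjusted p = 0.00018) and GSTU26, next to GSTU25, from 14.4 and 14.2 to 30.5 and 22.3 (0.88, SE 0.15, edgeR adjusted p = 0.00027).

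The 3 that fell were GSTU27 (55.7 and 52.5 CPM to 25.03 and 27.51, edgeR adjusted p = 3.89e-06), GSTU16 (42.5 and 39.4 to 25.3 and 20.9, edgeR adjusted p = 0.000122) and GSTU13 (48.9 and 38.1 to 32.3 and 23.1, edgeR adjusted p = 0.00454). Their log2 fold changes were -1.04 (SE 0.11), -0.83 (SE 0.13) and -0.65 (SE 0.17). The median of the 14 was 0.58. With a filter of 5 CPM in 2 libraries, which leaves out genes of low counts, 3 rose and 3 fell. With total count scaling 10 rose and 1 fell, GSTU16 lost its call and GSTU13 changed sign (0.09). GSTU13 also lost its call without untreated replicate 1 (edgeR adjusted p = 0.128).

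In gun1-9, 2 of the 14 rose over treated wild type and 4 fell, where 43.8% of all genes passed (22.9% higher and 20.9% lower). GSTU16 was at 42.45 and 46.6 CPM against 25.3 and 20.9 (log2 fold change 0.95 with SE 0.13, edgeR adjusted p = 8.39e-05). GSTU13 was at 10.9 and 12.9 CPM against 32.3 and 23.1 (-1.215, SE 0.18, edgeR adjusted p = 0.000157), and the 2 gun1-9 libraries lay below all 4 wild type libraries. GSTU4 was higher at 5.238 and 5.201 CPM against 3.27 and 2.00 (0.9985, SE 0.28, edgeR adjusted p = 0.0114).

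GSTU26 and GSTU27 were lower by log2 fold changes of -0.41 (with SE 0.15, edgeR adjusted p = 0.0387) and -0.32 (SE 0.11, edgeR adjusted p = 0.0333). The fourth that fell, named here to complete the count, was GSTU6 (-1.396, edgeR adjusted p = 0.00237), which has under 3 CPM in every library and overlaps a gene on the opposite strand. GSTU4 lost its call without either gun1-9 replicate (edgeR adjusted p up to 0.0694) and with total count scaling. GSTU26 lost its call without treated wild type replicate 1, gun1-9 replicate 1 or any 1 of the 4 MORF2 line libraries (edgeR adjusted p up to 0.251), and with only the groups compared. GSTU27 lost its call without treated wild type replicate 2 or any 1 of the gun1-9 or MORF2OX(w) libraries (edgeR adjusted p up to 0.104), with DESeq2, and with only the groups compared.

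In MORF2OX GSTU16 rose (35.2 and 36.1 CPM, log2 fold change 0.62 with SE 0.13, edgeR adjusted p = 0.00313), and GSTU13 (16.9 and 15.9 CPM, -0.75, SE 0.17, edgeR adjusted p = 0.00609) and GSTU6 (-0.87, edgeR adjusted p = 0.0292) fell against treated wild type, where 33.4% of all genes passed. The count of 3 was 1 without MORF2OX replicate 2, where GSTU13 had an edgeR adjusted p of 0.0592, and 6 without treated wild type replicate 2. GSTU16 lost its call with total count scaling and when only the groups compared were fitted. In MORF2OX(w) GSTU16 (0.48, SE 0.13, edgeR adjusted p = 0.0295) was higher and GSTU13 (-0.57, SE 0.17, edgeR adjusted p = 0.0483) lower, where 12.9% of all genes passed. Leaving out any of the 10 libraries changed that count of 2. It was 0 without either replicate of gun1-9 or of MORF2OX(w), 7 without treated wild type replicate 2, and 1 without any of the other 5. The directions of GSTU16 and GSTU13 were thus the same in all 3 lines, while the member GSTU17 lay above treated wild type in gun1-9 and below it in the MORF2 lines. GSTU25 did so too with TMM, but its log2 fold change in gun1-9 was -0.102 with total count scaling.

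Compared with gun1-9, GSTU4 was lower in MORF2OX (log2 fold change -1.71, edgeR adjusted p = 0.000869) and in MORF2OX(w) (-1.62, edgeR adjusted p = 0.00106), where 35.2% and 35.7% of all genes passed. In all, 2 of the 14 passed in MORF2OX, the other being GSTU28 (0.69, edgeR adjusted p = 0.0271). That count was 6 without either treated wild type replicate and 1 without either replicate of gun1-9 or of MORF2OX. In MORF2OX(w) 4 passed, with 2 left without gun1-9 replicate 1 and 1 without MORF2OX(w) replicate 1. Between the MORF2 lines none of the 14 passed with edgeR or with DESeq2, 1 had an unadjusted edgeR p under 0.05, and 1.81% of all genes passed.

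**Figure D3:**
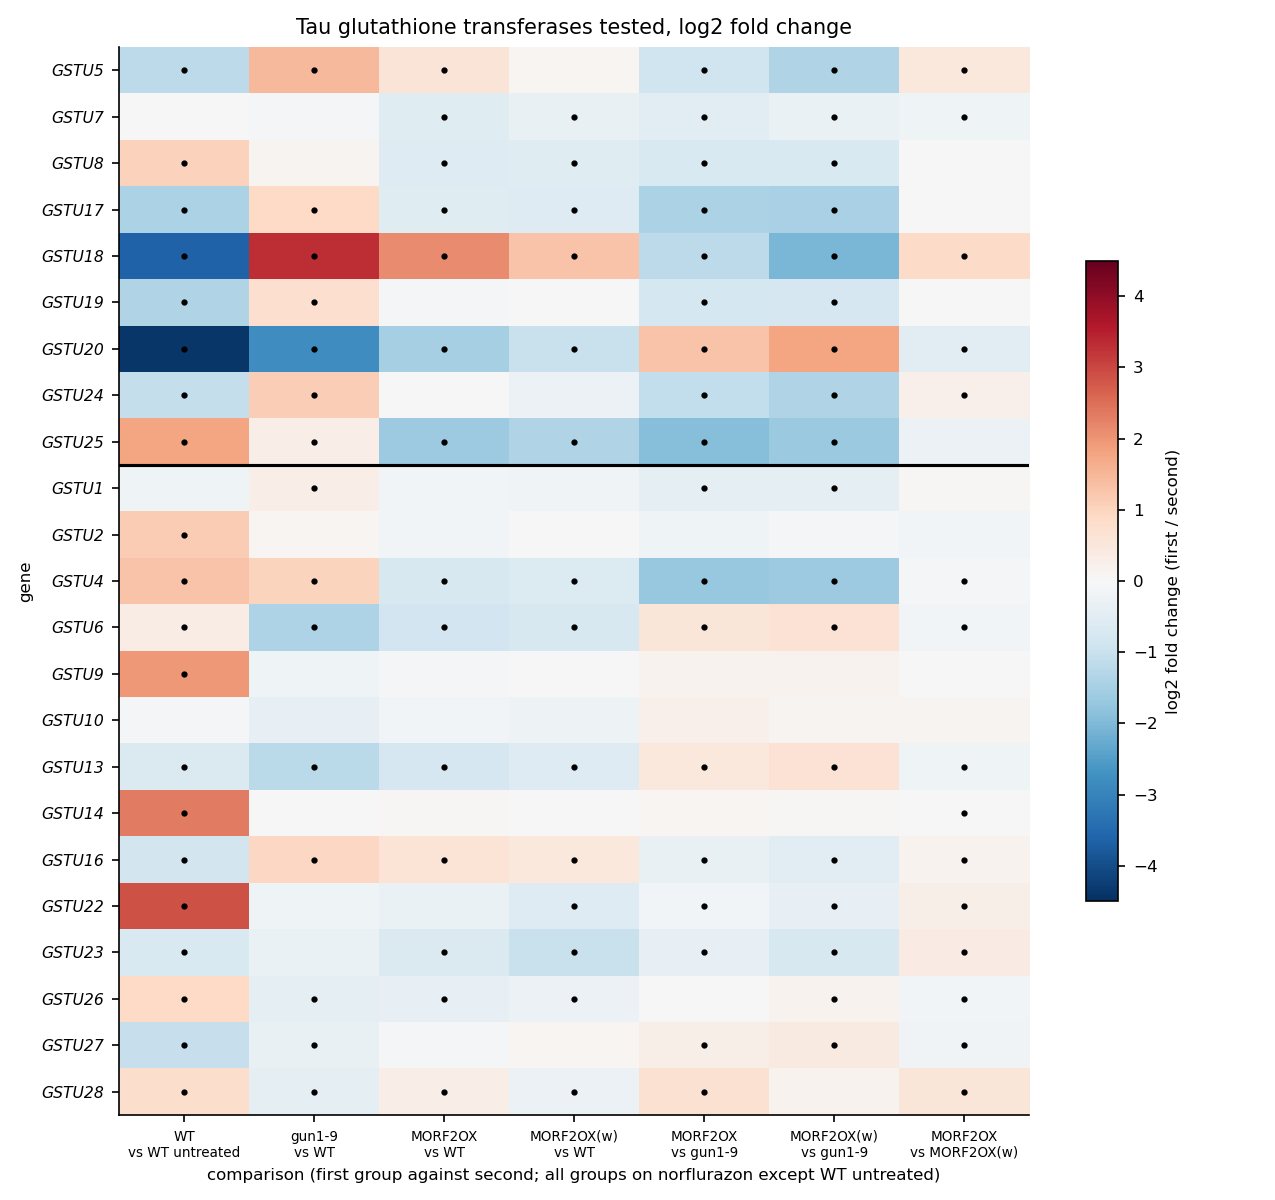
Log2 fold change of the 23 tau genes tested (rows) in 7 comparisons (columns, the first group against the second), red for higher and blue for lower, with the 9 listed genes above the black line. A dot marks comparisons in which the libraries of the groups do not overlap; GSTU18 (-3.63 on norflurazon, 3.31 in gun1-9) and GSTU20 (-4.39 and -2.78) are among the strongest colours.

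Outside the tau class, phi glutathione transferases, the other large plant class, showed no call for a higher level in gun1-9. None of 12 tested was higher than in treated wild type with edgeR or DESeq2 and 4 were lower (5 had an unadjusted edgeR p under 0.05), where 22.9% of all genes were higher and 20.9% lower. GSTF12, also named TT19 and needed for anthocyanin to reach the vacuole, was at 3.01 and 1.93 CPM in gun1-9 against 6.66 and 5.13 (log2 fold change -1.26 with SE 0.24, edgeR adjusted p = 0.00105). GSTF10 was at 72.2 and 79.5 CPM against 192 and 137 (-1.12, SE 0.15, edgeR adjusted p = 9.53e-05). Both also fell in MORF2OX, by log2 fold changes of -2.18 (with SE 0.25, edgeR adjusted p = 7.53e-05) and -0.9975 (with SE 0.15, edgeR adjusted p = 0.000501), among 6 phi genes that fell and 1 that rose, where 14.1% of all genes were lower and 19.3% higher. With DESeq2 3 fell and none rose, with total count scaling 7 fell and none rose, and without either MORF2OX replicate 3 passed in all. On norflurazon 2 phi genes rose in wild type and 6 fell, where 30.5% of all genes were higher and 34.5% lower, and with total count scaling 5 rose and 3 fell. GSTF8, an early stress-induced gene, rose from 366 and 327 CPM to 694 and 550 (0.85, SE 0.14, edgeR adjusted p = 0.000183).

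Of the smaller classes, the lambda enzyme GSTL3 and the plastid dehydroascorbate reductase DHAR3 had group means in the order of GSTU18. GSTL3 fell on norflurazon from 212 and 195 CPM to 43.6 and 50.3 (log2 fold change -2.11 with SE 0.12, edgeR adjusted p = 2.23e-08) and was at 121 and 127 in gun1-9 (1.401, SE 0.12, edgeR adjusted p = 1.36e-06). DHAR3 fell from 247 and 229 CPM to 58.7 and 55.3 (-2.06, SE 0.12, edgeR adjusted p = 2.82e-08) and was at 108 and 112 in gun1-9 (0.95, SE 0.12, edgeR adjusted p = 3.64e-05). In MORF2OX and MORF2OX(w), GSTL3 was at 65.8 and 62.7 CPM and at 52.5 and 55.8, and DHAR3 at 92.8 and 79.96 and at 72 and 76.7. The call of GSTL3 in MORF2OX was lost under 3 of 17 alternatives and that of DHAR3 in MORF2OX(w) under 13 of 17. The cytosolic DHAR1 moved the other way in gun1-9, at 29.9 and 28.5 CPM against 60.3 and 57.2 (-1.01, SE 0.10, edgeR adjusted p = 9.48e-06). In all, 3 of 11 rose and 3 fell in gun1-9, where 22.9% of all genes were higher and 20.9% lower, and with total count scaling 3 rose and 6 fell. Glutathione reductase GR2, which serves plastids and mitochondria, fell on norflurazon from 603 and 561 CPM to 117 and 167 (-2.03, SE 0.16, edgeR adjusted p = 3e-07) and was higher in gun1-9 (1.34, SE 0.15, edgeR adjusted p = 2.11e-05) and MORF2OX (0.92, SE 0.15, edgeR adjusted p = 0.000863). On norflurazon 6 of the 8 tested genes of glutathione synthesis and turnover fell and 1 rose, where 34.5% of all genes were lower and 30.5% higher, and with total count scaling 3 fell and 2 rose.

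Of 5 transporters of the ABCC family, 3 rose in gun1-9 and 1 fell, where 22.9% of all genes were higher and 20.9% lower. ABCC4 was at 102.5 and 114.5 CPM against 35.0 and 46.9 in treated wild type (log2 fold change 1.404 with SE 0.14, edgeR adjusted p = 5.85e-06) and ABCC2 at 241 and 235 against 94.14 and 120.5 (1.15, SE 0.13, edgeR adjusted p = 2.42e-05). ABCC3 was lower, at 121 and 126 CPM against 201 and 235 (-0.82, SE 0.14, edgeR adjusted p = 0.000611). With total count scaling 2 rose and 2 fell. ABCC3 had risen on norflurazon in wild type from 83.8 and 67.7 CPM (1.53, SE 0.15, edgeR adjusted p = 1.95e-06) and was also lower in MORF2OX, at 111.6 and 137.5 CPM (-0.81, SE 0.14, edgeR adjusted p = 0.0013). In MORF2OX 3 of the 5 rose and 1 fell as well, where 19.3% of all genes were higher and 14.1% lower. ABCC4 (0.71, edgeR adjusted p = 0.00218) and ABCC2 (0.46, edgeR adjusted p = 0.0198) were among those that rose. Both lost their call with only the groups compared, and ABCC2 also with total count scaling.

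Several enzymes and carriers of the xenobiotic response were called higher in gun1-9. Of 11 tested, 7 were higher in gun1-9 than in treated wild type and none lower (edgeR and DESeq2; 7 had an unadjusted edgeR p under 0.05), where 22.9% of all genes were higher. The count was 7 without any of the 10 libraries and 5 with total count scaling. UGT74E2, a glucosyltransferase of indole-3-butyric acid that responds to oxidative stress, was at 172.7 and 190.5 CPM in gun1-9 against 5.53 and 5.99 (31.55-fold, log2 fold change 4.98 with SE 0.24, edgeR adjusted p = 1.77e-08). CYP81D11, a cytochrome P450 induced by xenobiotics, was at 162 and 142 CPM against 17.6 and 14.5 (9.43-fold, 3.24, SE 0.13, edgeR adjusted p = 5.36e-09). Untreated wild type held 13.7 and 7.34 CPM of UGT74E2 and 46.5 and 51.8 of CYP81D11, so gun1-9 stood above it too for both. On norflurazon 3 of the 11 rose in wild type and 7 fell, where 30.5% of all genes were higher and 34.5% lower. With total count scaling 4 rose and 4 fell.

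In MORF2OX none of the 11 was higher than in treated wild type and 1, OPR1 (12-oxophytodienoate reductase), was lower (log2 fold change -0.60 with SE 0.12, edgeR adjusted p = 0.00358), where 19.3% and 14.1% of all genes were higher and lower. DESeq2 called 2 lower, and with edgeR 2 had an unadjusted p under 0.05. In MORF2OX(w) none of the 11 was higher and 1 was lower, where 8.36% of all genes were higher and 4.53% lower. With so low a share, the lack of higher calls in MORF2OX(w) is not read as a contrast with gun1-9. Compared with gun1-9, 8 of the 11 were lower in MORF2OX and 9 in MORF2OX(w) and none higher (edgeR), where 35.2% and 35.7% of all genes passed in either direction. DESeq2 called 8 lower in each and none higher. UGT74E2 was at 3.89 and 3.45 CPM in MORF2OX and 3.48 and 4.79 in MORF2OX(w), and CYP81D11 at 16.0 and 16.5 and at 14.9 and 14.9. Among the members, GSTU5, GSTU17, GSTU18, GSTU19, GSTU24 and GSTU25 were highest in gun1-9 among the 4 treated groups without overlap with TMM. For GSTU25 this depends on the scaling, with a log2 fold change in gun1-9 of -0.102 with total counts. The share of all genes highest in gun1-9 in this way was not computed. Nothing is read from this list, since the members were chosen with the values known. UGT74E2 and CYP81D11 differ from GSTU18 in that they were not above treated wild type in MORF2OX.

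**Figure D4:**
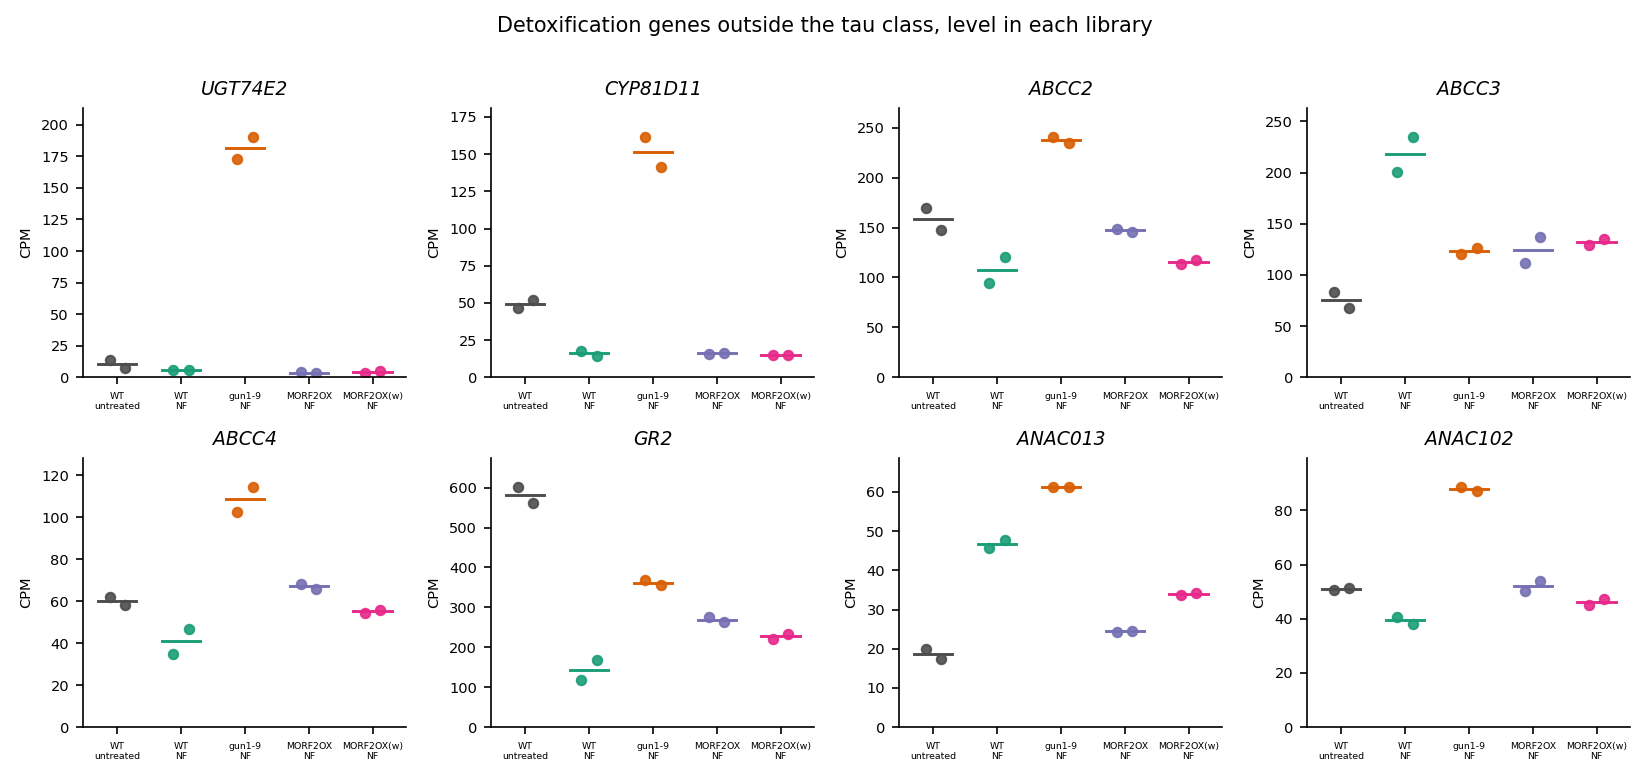
Level in CPM (vertical axis, from 0, scaled per gene) of 8 detoxification genes outside the tau class in the 5 groups, with 1 point per library and a line at the mean of 2. UGT74E2 (172.7 and 190.5 CPM) and CYP81D11 (162 and 142 CPM) stand apart in gun1-9, and ANAC013 is lower in the MORF2 lines than in treated wild type.

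Among 8 regulators of this response, ANAC013, a NAC factor of mitochondrial retrograde signalling, rose on norflurazon from 19.96 and 17.27 CPM to 45.8 and 47.7 (log2 fold change 1.33 with SE 0.11, edgeR adjusted p = 5.81e-07). It was at 61.4 and 61.2 CPM in gun1-9, 24.2 and 24.6 in MORF2OX against 33.6 and 34.2 in MORF2OX(w). MORF2OX was lower than treated wild type (-0.94, SE 0.11, edgeR adjusted p = 6.66e-05), as was MORF2OX(w) (-0.46, SE 0.10, edgeR adjusted p = 0.0145), which lost its call without either MORF2OX(w) replicate (edgeR adjusted p up to 0.132). ANAC102, a related NAC factor of the detoxification response, was at 88.8 and 87.1 CPM in gun1-9 against 40.7 and 38.1 (1.16, SE 0.10, edgeR adjusted p = 2.57e-06). TGA6, a bZIP factor that binds as-1, rose on norflurazon from 6.59 and 5.89 CPM to 15.1 and 14.4 (1.24, SE 0.13, edgeR adjusted p = 5.94e-06) and was at 8.80 and 9.63 in gun1-9 (-0.68, SE 0.13, edgeR adjusted p = 0.00102). In all, 4 of the 8 were higher in gun1-9 and 1 lower, where 22.9% and 20.9% of all genes were higher and lower. In all 3 passed without either untreated replicate or without treated wild type replicate 1, and 2 without either gun1-9 replicate. With total count scaling 1 was higher and 3 lower.

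For each member, the genes with the most similar pattern were taken from 12083 genes with a mean of at least 10 CPM, by Pearson r of log2 CPM over the 10 libraries. These r values describe 10 libraries in 5 groups and carry no test. For GSTU18 they included cPT4, a cis-prenyltransferase (r = 0.998), and RbcX2, a Rubisco assembly chaperone (0.997). GSTU19 was nearest to AT5G66530 (0.997), the small heat shock domain protein ACD32.1 (0.994) and the plastid phosphoglucose isomerase PGI1 (0.993). GSTU20 was nearest to the receptor kinase BAM2 (0.995), the peptide gene RALFL34 (0.995) and ICR1 (0.994), an interactor of ROP GTPases. For GSTU17 they were ASA2, an anthranilate synthase (0.994), AT1G72500 (0.987) and AT3G52990 (0.985), and for GSTU5 HINT3 (0.996), AT2G45990 (0.994) and AT1G62600 (0.992). GSTU24 was nearest to the cytosolic isocitrate dehydrogenase cICDH (0.979), AT1G73930 (0.975) and HESO1 (0.974). GSTU7 was nearest to AT1G09690 (0.987), AT1G33120 (0.985) and AT3G47370 (0.983), whose levels were likewise lowest in the MORF2 lines. PR4, a chitin-binding pathogenesis-related protein, was among the 3 nearest of both GSTU8 (0.973) and GSTU25 (0.926), and GSTU25 had GSTU8 itself as its nearest gene.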

How the data were processed

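The authors deposited raw counts of reads per gene, 1 file per library. The submitters' processing notes name TAIR10, HTSeq 0.6.1, edgeR, Bowtie2 2.3.1 and TopHat2 2.1.1, and the deposited files do not record their settings. Per the labels' protocols, 500 ng of RNA entered a stranded kit selecting polyadenylated RNA. From these counts, edgeR 4.0.16 in R 4.3.3 was run (filterByExpr, TMM, quasi-likelihood F test) as 1 fit of 5 group means over 10 libraries with no block. Of 33602 genes, 20628 were tested, with Benjamini-Hochberg adjustment over all of them and a threshold of 0.05. CPM uses TMM library sizes, and SE is the size of the log2 fold change divided by the square root of F. The labels do not say whether replicates came from separate cultures, so p-values measure only the spread between these libraries, which may be technical. The test was checked on simulated counts with the same dispersion for every gene and library. That check does not cover the wider spread between the treated wild type libraries.

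The members and the gene lists were chosen with earlier results of these data known. Other genes were picked by rule: up to 3 other tau genes (2 of other lists) per direction with the largest change among those called, at 5 CPM or more in the higher group, without overlap of libraries. Not all results picked in this way are printed. Genes named only to complete a count, or named in the comparisons between lines, were chosen after their values were seen. Alternatives were DESeq2 1.42.0, other scalings and filters, only the groups compared, a replicate block and leaving out each library. Promoters and coding sequences were read from RefSeq TAIR10.1, and coding identity replaced a planned protein comparison. Of the 3 genes most similar in pattern to each member, 1 is not reported here.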

Additional observations from a re-analysis of the deposited data

Results flagged for a closer look

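The results below were picked out because gun1-9 and a MORF2 line stood on opposite sides of treated wild type, with every library of one line above and every library of the other below it. Since they were picked for this difference, it is given here as a description, with no test. Values are log2 fold changes of a MORF2 line from gun1-9.

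Of the listed genes, GSTU17 was lower than in gun1-9 by -1.44 in MORF2OX and -1.45 in MORF2OX(w), and GSTU25 by -1.93 and -1.68. For GSTU25 the side of gun1-9 depends on the scaling, as its log2 fold change from treated wild type was -0.102 with total counts against 0.32 with TMM.

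Of the other tau genes, GSTU4 was lower in MORF2OX (-1.71) and MORF2OX(w) (-1.62), and GSTU28 higher in MORF2OX (0.69). The phi gene GSTF4 was lower in both (-1.22 and -0.84). GGT1, an apoplastic gamma-glutamyl transferase, was higher in both (1.41 and 1.13). Of the xenobiotic response, UGT74E2 (-5.63 and -5.465) and OPR1 (-0.79 and -0.79) were lower in both, and OPR2 was at -0.43 and -0.55. DTX1 was lower in MORF2OX (-0.90). UGT73B4 (-1.16) and AKR4C9 (-5.585) were lower in MORF2OX(w), where AKR4C9 rests on 2 and 1 counts. Of the regulators, ANAC013 was lower in both (-1.33 and -0.85) and TGA2 higher in both (0.41 and 0.38).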

How the results depend on the processing

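The 63 values of the 9 genes (7 comparisons) did not change sign where called in the main fit, and sign changes of the others were not counted. In gun1-9 against treated wild type, GSTU8 (-0.29) and GSTU25 (-0.102), which were not called, changed sign with total count scaling. Of 1071 alternative values, 1019 moved by less than the spread between replicates. Leaving out a library moves its group mean by less than that spread nearly by construction, and hardly touches comparisons of other groups. That total is therefore not evidence of stability. Of the 52 that moved further, 38 did so under total count scaling, which by its construction shifts all genes of a comparison together. With it the share of called genes that were higher was 78.5% (47% with TMM) in wild type on norflurazon, 20.2% (52.3%) in gun1-9, 18% (57.9%) in MORF2OX and 22.9% (64.8%) in MORF2OX(w) against treated wild type, 70.3% (46.7%) in MORF2OX(w) against gun1-9 and 52.1% (82.6%) between the MORF2 lines. It reversed GSTU13 (0.089), ABCC2 (0.18), ABCC4 (0.19) and ANAC102 (0.36) on norflurazon. Other tau genes called were then 5 in MORF2OX against wild type and 4 in MORF2OX against gun1-9.

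Counts of other tau genes called also moved as follows, and the cause was not tested. In MORF2OX against gun1-9 they were 1 with DESeq2, 0 with a filter of 5 CPM in 2 libraries and 6 with only the 2 groups compared. In MORF2OX against wild type they were 5 with no filter and 1 with only the 2 groups. For MORF2OX(w) against wild type they were 1 with RLE factors and 0 with only the 2 groups. On norflurazon they were 6 with the 5 CPM filter, 3 higher and 3 lower. With only the 2 groups, genes called in all were 2791 in MORF2OX, 335 in MORF2OX(w) and 1286 between the MORF2 lines, where DESeq2 called 638 and the unfiltered fit 870.

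Leaving out each library in turn, other tau genes called ranged from 1 to 6 in MORF2OX and from 0 to 7 in MORF2OX(w) against wild type, and from 1 to 6 and from 1 to 5 against gun1-9. All genes called ranged from 3320 to 10050, 526 to 7768, 4145 to 9875 and 4571 to 9873, and between the MORF2 lines from 0 (without MORF2OX(w) replicate 2) to 1548. The naming rule picked 76 results outside the list, not all of which are printed above. Of these, 44 kept their call in every alternative and 32 lost it in at least 1, among them all 10 in MORF2OX(w).

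Replicate numbers recur in every group, but nothing in the labels ties them to a shared batch. Deviations of same-numbered libraries correlated between -0.182 and 0.236 over 10 pairs of groups, 3 of them over 0.1. Among the treated groups all were positive (0.0371 to 0.236), and every negative value involved untreated wild type. The numbers were not taken as pairs, and whether the treated libraries share a batch was not tested. With a replicate block, genes called on norflurazon were 13462, other tau genes called there were 10, and DHAR3 in MORF2OX(w) lost its call (edgeR adjusted p = 0.0519). Depth limits, among others, GSTU20 in gun1-9, GSTU25 and GSTU22 untreated, and the tau genes left out.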
